A study of Rattus norvegicus with 3 samples.

Results

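The genes described here are 8 genes that mark the switch of cortical progenitors from making neurons to making glia: Olig1, Olig2, Egfr, Pdgfra, Sox10, Gfap, Aqp4 and S100b. They were taken by symbol from the 29772 genes of the count tables, and each was followed as raw counts of unique molecular identifiers (UMIs, 1 per captured RNA molecule) in 14694 cells. Wildtype rat cerebral cortex was dissociated with papain and profiled as droplet-based single-cell libraries at embryonic days 14, 16 and 18, with 1 library for each label. The labels give no age beyond the embryonic day, no number of embryos and no replicate, so a difference between libraries has no replicate check and no p-value is given. Intervals are 95% intervals that cover counting error only.

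In the embryonic cortex, radial glia line the ventricle, divide and give rise to neurons directly or through intermediate progenitors, and later produce astrocytes and oligodendrocyte precursors. Olig1 and Olig2 are basic helix-loop-helix transcription factors of the oligodendrocyte lineage, Sox10 acts with them as the lineage is specified, and Pdgfra is the receptor through which platelet-derived growth factor keeps oligodendrocyte precursors dividing. Egfr is the receptor for epidermal growth factor and marks progenitors that have become responsive to it. Gfap is the intermediate filament of astrocytes, Aqp4 their water channel and S100b a calcium-binding protein found in astrocytes and in some oligodendrocyte-lineage cells.

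The promoter is shown for 4 of the genes whose detection in progenitors differed between libraries. RefSeq promoters on the GRCr8 build were matched for 6 of the 8 genes. Each line gives the 250 bases before the start of the gene, 5′ to 3′ on the gene's own strand. Capitals mark CANNTG, the E-box letters bound by basic helix-loop-helix factors, and TATAAA, on either strand.
Olig2, chr11:43961335-43961584, + strand: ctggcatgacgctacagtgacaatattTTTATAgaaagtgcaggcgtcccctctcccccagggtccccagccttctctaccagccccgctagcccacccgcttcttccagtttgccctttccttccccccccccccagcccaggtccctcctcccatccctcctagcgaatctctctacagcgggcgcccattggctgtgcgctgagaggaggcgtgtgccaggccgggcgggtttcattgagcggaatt
Egfr, chr14:95378376-95378625, + strand: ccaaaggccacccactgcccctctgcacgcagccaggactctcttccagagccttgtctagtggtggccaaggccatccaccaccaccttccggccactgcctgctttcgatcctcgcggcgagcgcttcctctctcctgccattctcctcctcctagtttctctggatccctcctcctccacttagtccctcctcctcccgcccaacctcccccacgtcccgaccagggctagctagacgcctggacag
Gfap, chr10:88361662-88361911, - strand: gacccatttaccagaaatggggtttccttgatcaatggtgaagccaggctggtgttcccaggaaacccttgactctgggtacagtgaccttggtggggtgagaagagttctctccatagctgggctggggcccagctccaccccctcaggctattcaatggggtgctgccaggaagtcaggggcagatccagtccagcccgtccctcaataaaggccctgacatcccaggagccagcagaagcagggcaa
S100b, chr20:12381082-12381331, - strand: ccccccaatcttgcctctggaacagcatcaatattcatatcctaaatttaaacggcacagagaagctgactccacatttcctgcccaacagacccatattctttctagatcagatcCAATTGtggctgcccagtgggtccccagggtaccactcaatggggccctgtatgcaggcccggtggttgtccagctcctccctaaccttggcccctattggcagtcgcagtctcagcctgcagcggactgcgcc
Within this window Olig2 held a TATAAA match on the reverse strand, S100b held 1 E-box match, and Egfr and Gfap held neither. Of 33469 promoters of the same length, 65.5% held an E-box match and 12.9% a TATAAA match, so a match is common and marks no site.

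Cells were kept with at least 1000 genes and at most 10% mitochondrial UMIs, which left 4286 cells labelled E14, 4977 labelled E16 and 5431 labelled E18, at median depths of 10477 to 12264 UMIs. Pairs of libraries shared 7 or 8 kept barcodes. Stage genes did not follow the order of the labels. In radial glia the early gene Hmga2 stood at 11.7 CPM (counts of a gene scaled to a fixed total of UMIs) in the library labelled E14, 220.8 CPM in E16 and 21.6 CPM in E18, and the later glial gene Aldoc at 729.6, 17.0 and 238.0 CPM. Embryonic globins made up 2.57%, 67.4% and 22.0% of all globin UMIs. By these genes the library labelled E16 was the earliest and the library labelled E14 the latest, so libraries are named by label below and no course over days is read from them.

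Radial glia, named from markers other than these 8 genes, numbered 405, 2896 and 1756 cells in the libraries labelled E14, E16 and E18, and intermediate progenitors 454, 410 and 1367. Most radial glia labelled E16 lay in clusters led by Ung (966 cells), H4f3 (936) and Tuba1c (705), and most of those labelled E14 in clusters led by Aldoc (218), H1f5 (103) and Tuba1c (80). The same Aldoc, H1f5 and Tuba1c clusters held 643, 521 and 471 of the radial glia labelled E18. Neurons, the background, numbered 3322, 595 and 2001 cells, but the neurons labelled E16 were almost all from a cluster led by Calb1, Calb2 and Lhx9 (594 cells). Cortical identity was checked in radial glia with Emx1, a transcription factor of the dorsal forebrain, which stood at 79.5, 158.8 and 138.6 CPM.

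The 8 genes were rare. In kept cells they summed to 165 UMIs for Olig1, 253 for Olig2, 220 for Egfr, 308 for Pdgfra, 41 for Sox10, 388 for Gfap, 23 for Aqp4 and 318 for S100b. The share of positive cells with a single UMI ran from 43.8% for Sox10 to 83.5% for Olig1. Over the 3 libraries pooled, most UMIs of several of these genes lay outside the neural progenitors. Meningeal cells held 55.5% of the Egfr UMIs and 60.7% of the Pdgfra UMIs, erythroid cells 68.6% of the Gfap UMIs, and the cluster of microglia and vessel cells 68.3% of the Sox10 UMIs. Radial glia held the largest share for S100b, 58.5%, and for Aqp4, 43.5%, beside 40.0% of the UMIs of all genes. The libraries differed in this. Radial glia and intermediate progenitors of the library labelled E14 held 71 of 77 Egfr UMIs (92.2%) and 69 of 74 Gfap UMIs (93.2%). In E16 they held 5 of 106 and 7 of 269, and in E18 1 of 37 and 34 of 45.

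**Figure D1:**
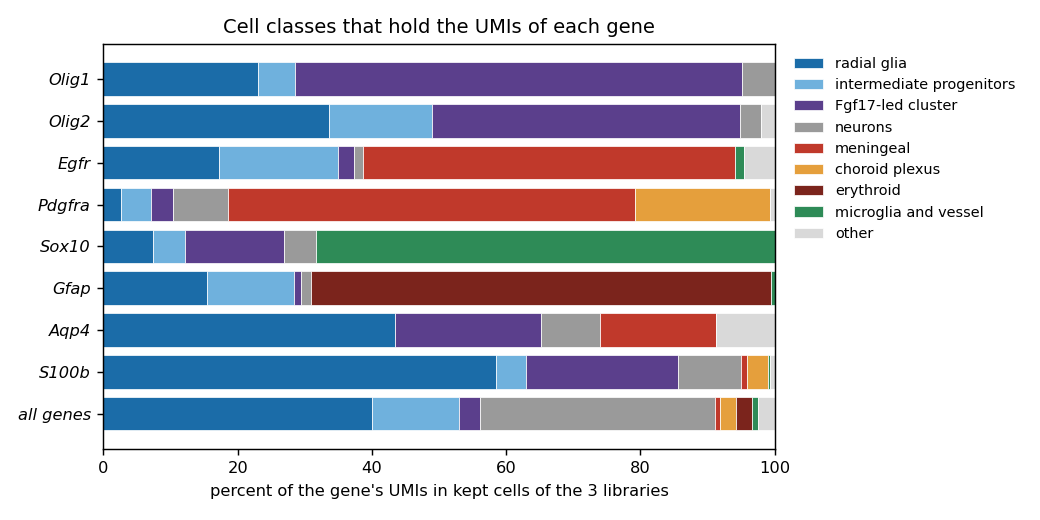
Share of each gene's UMIs (x axis, percent) by cell class over the kept cells of the 3 libraries, with all genes together as the last bar. Egfr and Pdgfra lay mostly in meningeal cells, Gfap in erythroid cells, Sox10 in the microglia and vessel cluster, and Olig1 in the cluster led by Fgf17 (66.7%, or 43.9% without its 5 cells labelled E14). Egfr and Gfap lay mostly in progenitors in the library labelled E14.

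Among radial glia, those labelled E14 most often held a UMI of any of these genes, though 0 of Pdgfra and Sox10. With every cell set to a depth of 2000 UMIs, 4.30% of the radial glia labelled E14 were expected to show a UMI of at least 1 of the 8 genes, against 0.257% of the neurons of that library, a difference of 4.04 percentage points (2.26 to 6.52). In the library labelled E18 the shares were 1.42% and 0.237%, a difference of 1.18 points (0.58 to 1.87). In the library labelled E16 they were 0.333% and 0.350%, a difference of -0.02 points (-0.92 to 0.40), so detection above the neuron background was not seen there at this depth. At full depth the shares in radial glia were 20.7% (84 of 405 cells), 2.14% (62 of 2896) and 7.86% (138 of 1756), and those in neurons 1.41%, 1.51% and 1.25%. The cluster led by Fgf17, described further on, stood higher than radial glia of the same library at 2000 UMIs, at 4.66% in E16 and 18.4% in E18.

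**Figure D2:**
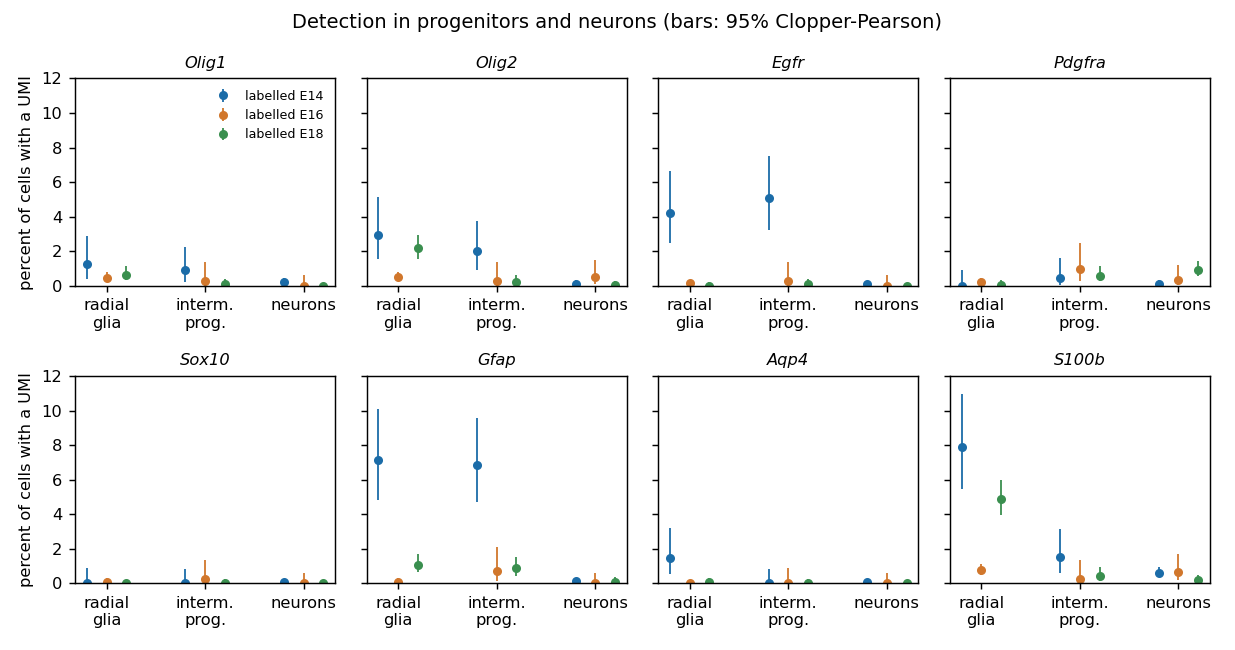
Percent of cells with at least 1 UMI (y axis) of each gene in radial glia, intermediate progenitors and neurons of the 3 libraries, with 95% Clopper-Pearson intervals. Egfr, Gfap and S100b were detected in 4.20%, 7.16% and 7.90% of the radial glia labelled E14, and S100b in 4.90% of those labelled E18.

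A gene is called here where its level differs at least 2-fold on the log2(CPM + 1) scale and the counting interval leaves out 0. The added 1 CPM shrinks the differences of genes near 0, so a gene can be past 2-fold in CPM and not called. Between radial glia labelled E16 and E14, 5 of the 8 genes were called lower in E16 (Olig2, Egfr, Gfap, Aqp4 and S100b) and 0 higher, where 5.52% of 20739 genes were called lower and 2.59% higher. Their median log2 difference was -1.47, against 0.02 over all genes. Between E18 and E16, Olig2 and S100b were called higher and 0 genes lower, where 1.4% of all genes were called higher and 0.682% lower, and the median was 0.19. Between E18 and E14, 3 of the 7 genes with UMIs were called lower in E18 (Egfr, Gfap and Aqp4) and 0 higher, beside 3.1% of all genes called lower and 1.07% higher, with a median of -0.62. With cells of at least 2000 genes and at most 5% mitochondrial UMIs that median turned to 0.14, and radial glia labelled E14 then numbered 133. Some calls were lost under other settings. Aqp4 was not called when radial glia and intermediate progenitors were pooled (-0.75 for E16 and -0.74 for E18, both against E14), where it had 8, 1 and 1 UMIs, at 0.716, 0.0202 and 0.0253 CPM, and with classes from single genes Aqp4 (-0.93) and Gfap (-1.04, -2.16 to 0.09) were not called for E18 over E14. In these 3 comparisons the libraries are shared, so they are not independent.

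Against the neurons of the same library, 6 of the 8 genes were called higher in radial glia labelled E14 (all but Pdgfra and Sox10), where 13.6% of all genes were called higher and 9.93% lower. In the library labelled E18 only Olig2 and S100b were called, 2 of 6 genes with UMIs, beside 11.7% of all genes higher and 10.1% lower. There Olig1 (16 against 0 UMIs, log2 0.72, 0.36 to 1.03) and Gfap (20 against 2 UMIs, 0.72, 0.31 to 1.05) stood higher beyond counting error and were not called. Pdgfra stood lower beyond counting error, at -0.89 (-1.24 to -0.50), and was not called. In the library labelled E16, 0 of the 8 genes were called higher or lower, beside 10.4% and 9.96% of all genes. Intermediate progenitors labelled E14 stood above the neurons in 3 genes (Olig2, Egfr and Gfap) and below in 0, where 9.14% of all genes were called higher and 8.74% lower. In E16, 0 of 7 genes with UMIs were called either way, beside 6.78% and 10.9% of all genes, and in E18 0 of 6, beside 7.16% and 8.58%. Gfap in E18 had 14 against 2 UMIs, higher beyond counting error and not called (0.83, 0.36 to 1.26).

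Olig2 had 20 UMIs in 12 of 405 radial glia labelled E14 (2.96%, 1.54 to 5.12), 14 UMIs in 14 of 2896 labelled E16 (0.483%, 0.265 to 0.810) and 51 UMIs in 38 of 1756 labelled E18 (2.16%, 1.54 to 2.96). These are levels of 3.38, 0.312 and 2.05 CPM. The intervals of E14 and E18 overlap and E16 lies below both. Against E14, E16 differed by -1.74 on the log2 scale (-2.27 to -1.18), and E18 stood above E16 by 1.22 (0.87 to 1.54). The last call was lost under separate clustering of the libraries (0.17, -0.19 to 0.54), and 3 other settings gave 0.84 to 0.97, below the 1 that a call needs on this scale. The 0.84 was with intermediate progenitors pooled in, at 1.37 CPM in E18 and 0.324 CPM in E16. Neurons held 4, 3 and 1 UMIs of Olig2, at 0.0997, 0.554 and 0.0488 CPM, so radial glia labelled E16 were not above the neurons of their library.

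Olig1 was counted as 9 UMIs in 5 radial glia labelled E14, 13 in 13 labelled E16 and 16 in 11 labelled E18, at 1.52, 0.290 and 0.643 CPM. The share of positive cells was 1.23% (0.402 to 2.86), 0.449% (0.239 to 0.766) and 0.626% (0.313 to 1.12), and the 3 intervals overlap. The level in E16 differed from E14 by -0.97 on the log2 scale (-1.61 to -0.36) and E18 from E16 by 0.35 (0.01 to 0.70), beyond counting error and not called. In CPM without the added 1 the folds were 5.26 and 2.22. In neurons it was seen as 8 UMIs in the library labelled E14 and 0 in the others.

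Egfr in radial glia was seen almost only in the library labelled E14. It had 34 UMIs in 17 of 405 radial glia labelled E14, 4 UMIs in 4 of 2896 labelled E16 and 0 UMIs in the 1756 labelled E18. The levels were 5.75 CPM (3.99 to 8.04), 0.0892 CPM (0.0243 to 0.228) and 0. With a floor of 3 UMIs set for the radial glia labelled E18, Egfr was 47.7-fold lower there than in those labelled E14. That fold leaves out the counting error of the 34 UMIs, so it is not a lower bound. The neurons held 3, 0 and 0 UMIs of Egfr. Intermediate progenitors gave the same contrast, with 37 UMIs in 23 of 454 cells labelled E14 (7.03 CPM) and a single UMI in each of the other libraries.

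Pdgfra was not called above neurons in radial glia or intermediate progenitors of any library. Radial glia held 0, 7 and 1 UMIs in the libraries labelled E14, E16 and E18, and intermediate progenitors 2, 4 and 8. The neurons labelled E18 held more, 19 UMIs in 18 of 2001 cells, at 0.928 CPM beside 0.0402 CPM in radial glia. Sox10 had 0, 3 and 0 UMIs in radial glia. For the 405 radial glia labelled E14, a count of 0 was set against a floor of 3 cells, a share of 0.741%, which is not a Clopper-Pearson limit. The 0 counts held for the main clustering. With each library clustered on its own, E16 over E14 was -0.90 for Sox10 (-1.56 to -0.34) and -0.68 for Pdgfra (-1.36 to -0.13). Radial glia labelled E14 then held UMIs of both genes.

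Gfap had 36 UMIs in 29 of 405 radial glia labelled E14 (7.16%, 4.85 to 10.1), 4 UMIs in 3 of 2896 labelled E16 and 20 UMIs in 19 of 1756 labelled E18 (1.08%, 0.653 to 1.68). Its levels were 6.09, 0.0892 and 0.804 CPM, with E14 above E18 and E18 above E16 beyond their counting intervals. Neurons held 4, 0 and 2 UMIs. Intermediate progenitors labelled E14 held Gfap too, with 33 UMIs in 31 of 454 cells (6.83%, 4.69 to 9.55; 6.27 CPM). Within these cells, the cluster led by Efl1, Neurog2 and Eomes, of which Neurog2 and Eomes mark committed neuronal progenitors, held 27 of the 33 UMIs, in 25 of 263 cells.

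S100b was counted as 42 UMIs in 32 radial glia labelled E14, 23 in 22 labelled E16 and 121 in 86 labelled E18. The levels were 7.11 CPM (5.12 to 9.61), 0.513 CPM (0.325 to 0.769) and 4.87 CPM (4.04 to 5.81), so E16 lay below the others. E18 differed from E14 by -0.47 on the log2 scale (-0.91 to -0.01), beyond counting error and not called. In intermediate progenitors S100b was lower, at 1.33, 0.218 and 0.410 CPM, and in neurons it stood at 0.499, 0.738 and 0.293 CPM. Among the radial glia labelled E18 it was found in 3.73% of the Aldoc-led cluster, 5.10% of the Tuba1c-led, 5.57% of the H1f5-led and 7 of 70 cells of the Ung-led cluster. For Aqp4, 6 radial glia labelled E14 carried 8 UMIs, at 1.35 CPM, and radial glia of each other library held a single UMI.

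In intermediate progenitors, 3 genes were called lower in E16 than in E14 (Olig2, Egfr and Gfap) and 0 higher, of 7 with UMIs, where 7.24% of all genes were called lower and 3.77% higher. Between E18 and E14, 4 of 6 were called lower (Olig1, Olig2, Egfr and Gfap) and 0 higher, where 2.09% of all genes were called lower and 1.16% higher. Between E18 and E16, 0 of 7 genes were called either way, beside 2.42% of all genes called higher and 1.59% lower. Different clusters held most of this class in the libraries. The cluster led by Efl1, Neurog2 and Eomes held 263, 72 and 391 of its cells in E14, E16 and E18, the cycling clusters led by Gadd45g and by Ube2c 94, 188 and 335 and 45, 100 and 123, and the cluster led by Ppp1r17 52, 50 and 518. The part of this make-up in the differences was not tested.

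Over the classes of at least 20 cells, Egfr and Pdgfra were highest in meningeal cells, the fibroblast-like cells of the brain's coverings. Egfr stood at 73.5 CPM (59.3 to 90.0) in the 93 meningeal cells labelled E16 and 83.0 CPM (55.6 to 119) in the 22 labelled E18. Pdgfra stood at 111.4 and 131.6 CPM in the same cells, and both were detected together in 48 of the 115. Its share was similar with and without Egfr, as 75% of the meningeal cells with Egfr and 66.7% of those without held Pdgfra. Pdgfra was also found in choroid plexus cells, at 9.83 CPM in 152 cells labelled E16 and 20.7 CPM in 53 labelled E18. The library labelled E14 held 0 meningeal and 0 choroid plexus cells. The part of free RNA in the Egfr UMIs of progenitors was not tested.

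Gfap was highest in erythroid cells. In the 124 erythroid cells labelled E16 it had 258 UMIs in 107 cells (86.3%, 79.0 to 91.8), at 63.0 CPM (55.5 to 71.2). Aqp4 and S100b were at 0 in these cells and Slc1a3, a glutamate transporter of radial glia and astrocytes, had 1 UMI. Other genes of radial glia were seen, with 169 UMIs of Vim in 44 cells, 18 of Sox2 in 8 and 8 of Nes in 5. Slc4a1 and Alas2, genes of red cells, were found in all 124. Of genes looked at as neighbours of Gfap after its values were seen, Ccdc103 and FAM187A had 0 UMIs, Eftud2 15 and Kif18b 10. Whether these UMIs come from Gfap transcripts was not tested. Radial glia labelled E16, in the library with the most erythroid cells, held 4 Gfap UMIs in 2896 cells, and the library labelled E14, where Gfap in progenitors was highest, held 1 erythroid cell. The part of free erythroid RNA in the Gfap UMIs of progenitors was not tested.

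Over classes of at least 20 cells, Sox10 was highest in the cluster of microglia and vessel cells labelled E16, with 28 UMIs in 9 of 40 cells. Those 9 cells held 0 UMIs of Olig1, Olig2 and Pdgfra, and 0 UMIs of the microglial genes C1qa, C1qb and Csf1r and of the vessel genes Cldn5 and Pecam1. They were high in Erbb3, the neuregulin co-receptor (126.1 CPM against 13.1 in the other 31 cells), and in Ptprz1 (601.1 against 55.7). Foxd3, a neural crest transcription factor, stood at 133.6 against 8.18 CPM, and was looked at after the values were seen.

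**Figure D3:**
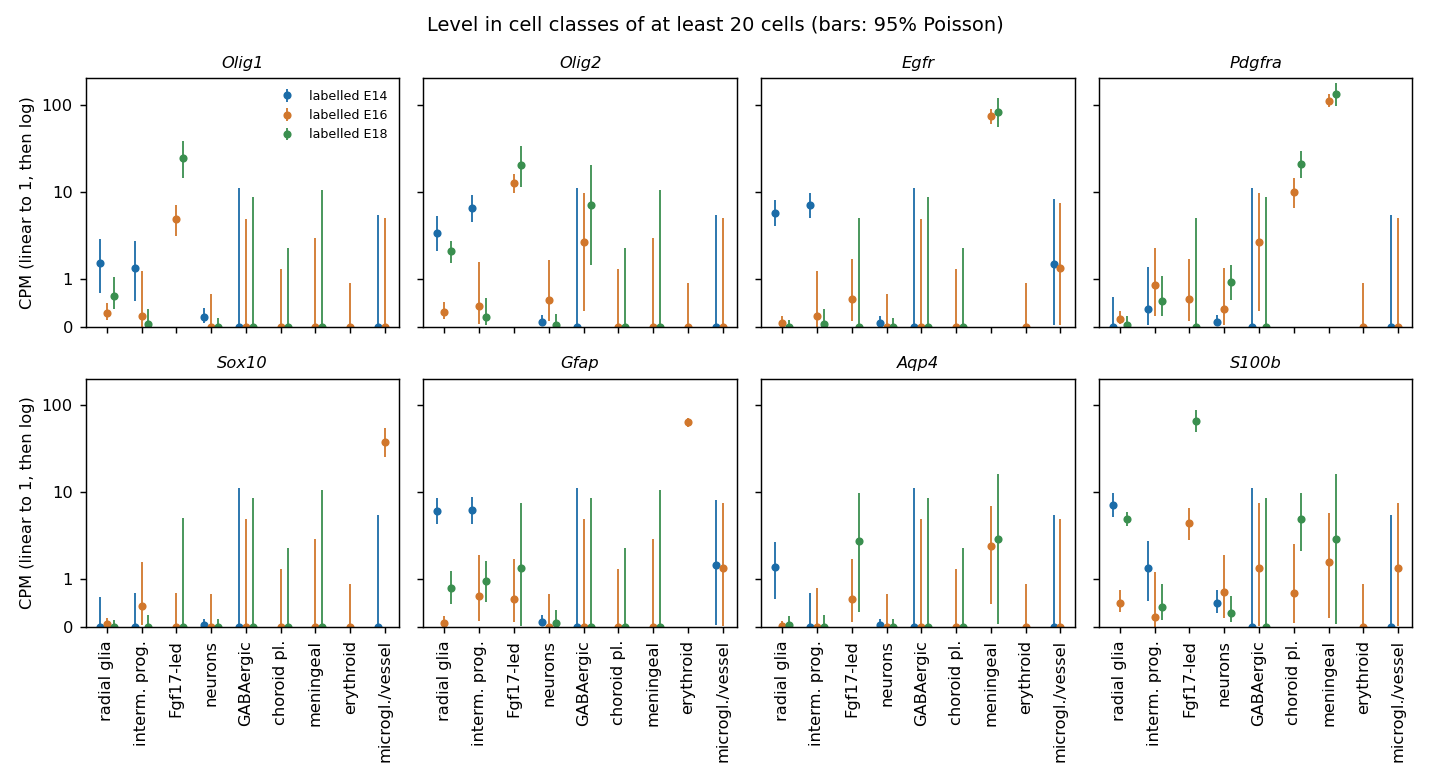
Level of each gene (y axis, CPM, linear to 1 and log above) in cell classes of at least 20 cells, by library, with 95% Poisson intervals. The Fgf17-led cluster held the highest Olig1, Olig2 and S100b levels, meningeal cells the highest Egfr and Pdgfra, and erythroid cells labelled E16 the highest Gfap.

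An unnamed cluster led by Fgf17, Fgf8 and Zic4, genes of the rostral patterning centre, held 5, 414 and 50 cells of the libraries labelled E14, E16 and E18. In its cells labelled E18, S100b had 49 UMIs in 12 of 50 cells (24.0%, 13.1 to 38.2; 66.0 CPM), Olig1 18 UMIs in 13 cells and Olig2 15 UMIs in 11 cells. In its cells labelled E16, Olig2 had 65 UMIs in 46 of 414 cells (12.5 CPM, 9.62 to 15.9), Olig1 25 UMIs in 24 cells and S100b 23 UMIs in 21 cells. Radial glia of the same library stood at 0.312 CPM for Olig2. Of 6 ventral forebrain factors, 3 were called higher and 0 lower in the 46 cells with Olig2 labelled E16 than in the other 368, and of 4 dorsal genes 0 were called higher and 1 lower. The ventral genes called were Nkx2-1 (24.8 against 4.38 CPM), Gsx2 (51.1 against 17.7) and Six3 (153.3 against 64.6), and the dorsal gene was Emx1 (23.2 against 77.9), beside 1.08% of all genes called higher and 1.77% lower between these cells. In E18, the 12 cells with S100b were higher than the other 38 in Fgf17 (1003 against 8.76 CPM, detected in 10 and in 2 cells), Fgf8 (326.7 against 56.1) and Olig1 (64.2 against 12.3), where 3.48% of all genes were called higher and 1.82% lower. Of 4 leading genes of the cluster, 3 were called higher and 0 lower in these 12 cells. The 46 cells with Olig2 labelled E16 went the other way, with 0 of the 4 called higher and 2 lower. The part of depth in these differences was not tested.

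The 5 cells labelled E14 that fell in this cluster held 0 UMIs of Fgf17 and of Fgf8, and they carried many of the UMIs of Olig1, Olig2, Pdgfra and Sox10 of their library. They were 5 of 4286 cells and held 67 of its 91 Olig1 UMIs (73.6%), 36 of its 94 Olig2 UMIs (38.3%), 7 of its 13 Pdgfra UMIs and 6 of its 8 Sox10 UMIs. Depth in them ran from 14293 to 20215 UMIs. In 3 of the 5, Olig1 and Olig2 occurred with Pdgfra or Sox10, and 0 such cells were found in the libraries labelled E16 and E18. The second of the 5 held 22 UMIs of Olig1, 6 of Sox10, 3 of Pdgfra, 4 of Cspg4, a proteoglycan of oligodendrocyte precursors, and 5 of Gpr17, a receptor of differentiating precursors. The first held 23 of Olig1, 10 of Olig2, 2 of Pdgfra and 0 of Sox10. The third and the fifth held 41 and 39 UMIs of Dlx1, a transcription factor of GABAergic progenitors, and the fifth also 24 of Gad2. Gfap, Aqp4 and S100b were at 0 in all 5. These cells were singled out after their values were seen.

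In the library labelled E14, Olig1 and Olig2 were detected more often in progenitors with Egfr than in those without. Most progenitors with Egfr held neither. Of its 859 radial glia and intermediate progenitors, 40 held a UMI of Egfr. Olig1 was detected in 7 of these 40 (17.5%) and in 2 of the other 819 (0.244%), and Olig2 in 7 of the 40 (17.5%) and in 14 of the 819 (1.71%). Gfap was in 4 of the 40 (10.0%) and 56 of the 819 (6.84%), and S100b in 1 and 38. Median depth was 14057.5 UMIs in cells with Egfr and 11527 in cells without. Its part in these shares was not tested.

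Of 9 genes that respond to growth factor signalling, 3 were called higher in the cells with Egfr, 0 lower and 6 neither, where 1.15% of all genes were called higher. The 9 genes were chosen after values were seen, so their counts here and below are a description and support nothing. Ccnd1, a cyclin of the G1 phase, stood at 309.8 CPM (267 to 357) against 49.2 CPM, Spry4, a feedback inhibitor of receptor tyrosine kinases, at 21.1 against 1.71 CPM, and Dusp6, a phosphatase that acts on ERK, at 19.5 against 2.65 CPM. Spry4 and Dusp6 were each detected in 5 of the 40 cells. Of 18 astrocyte genes, 6 were called lower and 0 higher (Aldoc, S1pr1, Clu, Apoe, Tnc and Id3), where 2.16% of all genes were called lower. Aldoc stood at 180.1 against 489.5 CPM and Apoe at 6.49 against 38.6 CPM. Of 8 oligodendrocyte-lineage genes with UMIs, 0 were called higher and 1 lower, Bcan (17.8 against 60.9 CPM). Of 4 oligodendrocyte precursor markers with UMIs, 0 were called either way. Of 4 dorsal genes 1 was called lower, Emx1 (60.0 against 140.5 CPM), and of 12 radial glia genes 1, Hes1, a Notch target that maintains progenitors (27.6 against 62.8 CPM), with 0 of either list higher. Of the 6 ventral genes only 2 had UMIs, and 0 of these 2 and 0 of 5 cell-cycle genes were called.

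The 21 progenitors with Olig2 labelled E14 included 7 that also held Egfr. Ccnd1 stood at 446.3 against 50.5 CPM, and 6 of the 9 response genes were called higher, among them Spry2 (59.5 against 22.0 CPM) and Etv5 (94.7 against 41.3), where 1.45% of all genes were called higher. Sox8, a factor of both glial lineages, stood at 27.0 against 11.8 CPM. Of 18 astrocyte genes 0 were called higher and 5 lower (S1pr1, Clu, Apoe, Tnc and Id3). Of 10 intermediate progenitor genes 0 were called higher and 1 lower, Eomes, at 254.3 against 635.2 CPM, where 1.55% of all genes were called lower. The 34 Olig2 UMIs of the intermediate progenitors were uneven, and 28 lay in 5 of the 94 cells of the cycling cluster led by Gadd45g.

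**Figure D4:**
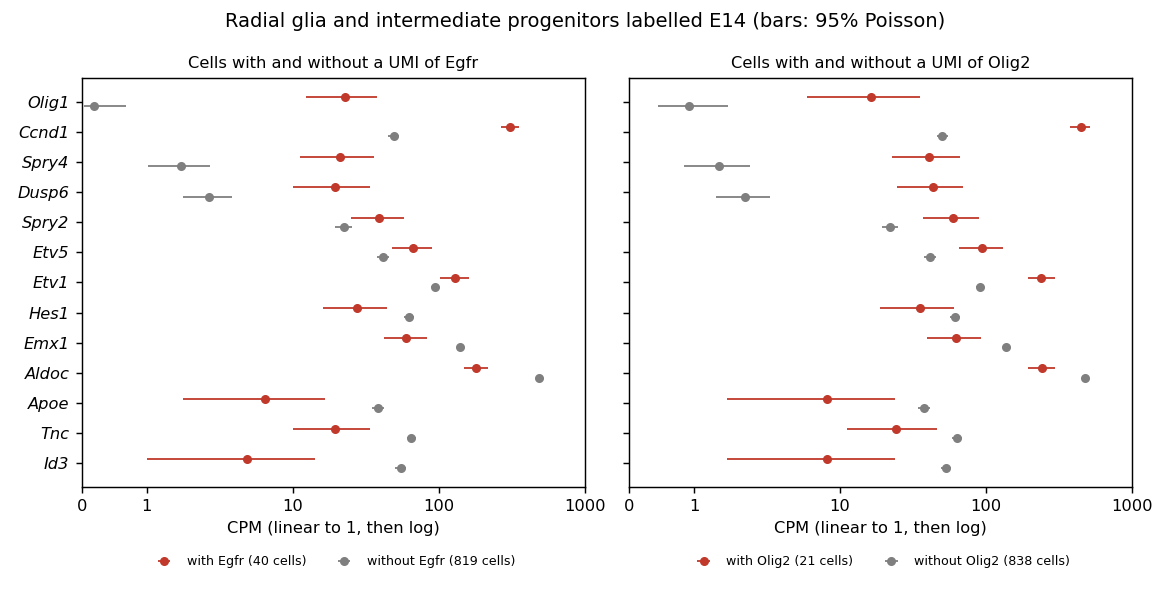
Level (x axis, CPM, linear to 1 and log above) of 13 genes in progenitors labelled E14 with and without a UMI of Egfr (left, 40 and 819 cells) and of Olig2 (right, 21 and 838 cells), with 95% Poisson intervals. Ccnd1, Spry4 and Dusp6 lie higher, and Emx1, Apoe, Tnc and Id3 lower, in the cells with either gene.

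Of the 60 progenitors labelled E14 with Gfap, 2 held Olig2, 4 held Egfr and 0 held Olig1. Of the 18 astrocyte genes 0 were called higher and 1 lower, Sparcl1 (1.70 against 11.6 CPM), beside 0.803% of all genes called lower. The median over the 18 was 0.36 on the log2 scale, against -0.04 over all genes, and 6 of them had intervals above 0 without reaching 2-fold. Tnc differed by 0.75 (0.46 to 1.04), Id3 by 0.68 (0.35 to 1.00) and Gja1 by 0.66 (0.23 to 1.07). Median depth was 13314 UMIs in cells with Gfap and 11543 in cells without, and its part was not tested. Sox8 was called higher, at 25.6 against 10.7 CPM, beside 1.37% of all genes.

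Radial glia labelled E18 held 0 UMIs of Egfr. Among them, Olig1, Olig2 and S100b were each detected more often in cells with another of these genes than in cells without it. In each pair, most cells with a UMI of the first gene held no UMI of the second. Olig2 was detected in 5 of 11 cells with Olig1 (45.5%) and in 1.89% of those without, and S100b in 9 of 38 cells with Olig2 (23.7%) and in 4.48% of those without. The 38 cells with Olig2 were higher in Apoe (72.2 against 8.93 CPM), Dusp6 (23.6 against 1.94) and Etv4 (16.2 against 1.16), where 2.12% of all genes were called higher. Of the 18 astrocyte genes 3 were called higher (Apoe, Sparcl1 and Tnc) and 2 lower, Hopx (64.8 against 242.1 CPM) and Fgfr3 (22.1 against 103.8), where 0.713% of all genes were called lower. The 86 cells with S100b were higher in Id3 (54.4 against 17.1 CPM), Tnc (28.1 against 5.23) and Apoe (46.4 against 7.96). Of the 18 astrocyte genes 4 were called higher and 1 lower, beside 1.51% and 0.317% of all genes. Median depths in cells with and without were 16162.5 and 12622 UMIs for Olig2 and 16734.5 and 12574 for S100b, and their part in these differences was not tested. For S100b in the radial glia labelled E14 (32 cells with, 373 without), 0 of the 18 astrocyte genes were called higher and 1 lower, beside 1.27% of all genes called higher and 0.518% lower.

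The order E14, E18, E16 in radial glia, from the highest level to the lowest, was seen in 5 of the 8 genes, with Aqp4 placed by 1 UMI in each of E18 and E16. It was seen in 7 of 11 genes of the oligodendrocyte lineage with UMIs, 11 of 18 astrocyte genes, 6 of 14 regulators of gliogenesis, 4 of 13 ErbB genes and 4 of 5 cell-cycle genes. Of the other lists, 1 of 6 ventral genes, 1 of 4 ligands of the platelet-derived growth factor family, 0 of 4 dorsal genes and 0 of 4 early stage genes had it. Over all genes 26.2% of 21285 with UMIs had this order, and 37.7% of the 9848 at 5 CPM or more on average. Of the oligodendrocyte-lineage genes, 5 were called lower in E16 than in E14 and 0 higher, beside the 5.52% and 2.59% of all genes given above. Ptprz1, a receptor phosphatase of radial glia and precursors, stood at 449.0, 150.9 and 186.1 CPM, Bcan, a matrix proteoglycan, at 97.1, 1.07 and 22.6, and Cnp, an early myelin enzyme, at 49.4, 13.7 and 22.9. Nkx2-2, a partner of Olig2 in oligodendrocyte differentiation, had 0 UMIs in all 3.

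Of the 18 astrocyte genes, 12 were called lower and 1 higher in E16 than in E14, beside 5.52% and 2.59% of all genes. Aldoc is given above. Hopx stood at 448.0, 131.6 and 237.3 CPM. Fgfr3 and the gap junction gene Gja1 had another order, with Fgfr3 at 80.2, 108.0 and 101.6 and Gja1 at 48.9, 111.8 and 84.5 CPM. Transcription factors that promote gliogenesis were found in radial glia of every library. Nfib stood at 1076, 675.4 and 1164 CPM, Nfia at 1027, 639.7 and 1114, Sox9 at 420.1, 331.3 and 496.1, and Zbtb20 at 411.6, 48.6 and 227.0. Of 14 such regulators, 3 were called lower and 0 higher in E16 than in E14, and 0 either way between E18 and E14, where 5.52% and 2.59%, and 3.1% and 1.07%, of all genes were called lower and higher.

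Of 13 ErbB receptor and ligand genes with UMIs, 1 was called lower in E16 than in E14 and 0 higher, a share near the 5.52% of all genes called lower. Between E18 and E14, 2 of 11 were called lower (Nrg1 and Erbb4) and 0 higher, beside 3.1% and 1.07% of all genes. Nrg1, a ligand of the Egfr relatives Erbb3 and Erbb4, stood at 55.5, 2.56 and 13.2 CPM. Erbb2 stood at 11.8, 10.8 and 8.41 CPM, Lrig1, which promotes the breakdown of ErbB receptors, at 16.9, 13.8 and 14.1, and the Egfr inhibitor Errfi1 at 2.71, 5.17 and 4.30. Of the ligands of platelet-derived growth factor receptors, 0 of 4 were called in E16 over E14. Pdgfc stood between 11.8 and 12.2 CPM in the 3 libraries and Pdgfa at 5.25, 8.52 and 5.67, while Pdgfd was at or under 1.52 CPM and Pdgfb had a single UMI.

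Over 22 groups of a class in a library with at least 50 cells, the gene most like Olig2 in log2(CPM + 1) was Olig1 (Pearson's r = 0.81), of 13948 genes with at least 5 CPM in some group. Olig1 and S100b were also alike (r = 0.86), and Olig1 was closest to Klk14 (r = 0.94) and Esm1 (r = 0.94), all highest in the Fgf17-led cells labelled E18. Egfr was closest to Cdc42ep1 and Zcchc24 (r = 0.89 for both) and Pdgfra to Qprt (r = 0.96), all highest in meningeal cells labelled E16. Gfap was closest to Als2cl (r = 0.88) and Tmie (r = 0.87). Groups of 1 library share its depth and its free RNA, and single groups with high values weigh heavily, so these are descriptions.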

How the data were processed

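The deposited files hold gene by barcode UMI counts from Cell Ranger 6.0.1, per the file headers, on mRatBN7.2, per the submitters' processing notes; the annotation is not given in the sources used here. The labels' protocol also describes cultured, oligo-labelled and sorted human cells, which does not match primary rat cortex. Libraries held 62740631, 80974234 and 73727823 UMIs (E14, E16, E18).

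Of 20744 barcodes, 15327 had at least 1000 genes and at most 10% mitochondrial UMIs. The highest Scrublet scores (scanpy 1.11.5, at 0.8% per 1000 cells) were removed as doublets, 633 in all. Leiden clustering (resolution 1, 30 principal components, 15 neighbours, 2000 variable genes) left out the 8 genes. Of 25 clusters, 24 were named from 124 marker symbols, of which 2 were not matched. A cluster torn among neuron types was counted as neurons, and this was settled after clusters were seen. CPM carry exact Poisson intervals, shares Clopper-Pearson intervals, and log2 ratios, with 1 CPM added, square-and-add intervals. Shares at 2000 UMIs are the exact mean over all draws, adopted after single random draws were seen to vary. The ratio code was tested on simulated data. Alternatives changed the cell filter, doublet removal, clustering, class definition, thinning, pseudocount and neurons. All 8 genes are named; of each companion list the 4 genes with the highest mean CPM in radial glia are named, and some others beside them; values of some genes are not reported here. The 8 genes and the lists were chosen with earlier results of these data known. The response gene list, the Sox10 cell genes and the sets of single cells were chosen after values were seen. No count model or p-value was used.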

Additional observations from a re-analysis of the deposited data

Results flagged for a closer look

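Barcodes that did not pass the cell filter, which the main comparisons do not use, also held UMIs of these genes, above the 3 counts that a count of 0 allows: 23 of Olig1, 14 of Olig2, 32 of Egfr, 98 of Pdgfra, 6 of Sox10, 159 of Gfap and 16 of S100b in 5417 barcodes. Gfap was concentrated in the library labelled E16, with 125 UMIs (30.9 CPM), where globins made up 40.9% of the UMIs of these barcodes. In the library labelled E14, 19 of the 23 Olig1 UMIs were found, at 3.02 CPM. Pdgfra was spread over the libraries, with 22, 26 and 50 UMIs.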

How the results depend on the processing

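The 6 summary values (3 medians between libraries and 3 differences from neurons) were recomputed 58 times, and 47 stayed within the limits of the main value. For the differences these limits were counting intervals. For the medians they were the medians of the single-gene limits, which are not a counting interval of the median. The exceptions follow. Radial glia labelled E16 over E14, with a median of -1.47, gave -2.47 with at least 500 genes and at most 20% mitochondrial UMIs, -2.16 when doublet removal was raised 2 times and -3.32 with 0.1 CPM added. E18 over E16 (0.19) gave 0.56 with 0.1 CPM added. E18 over E14 (-0.62) gave -1.34 with the loose filter, -1.42 when libraries were clustered separately, and turned to 0.14 with at least 2000 genes and at most 5% mitochondrial UMIs. Above neurons, E14 (4.04 points) gave 9.22 at 5000 UMIs, E18 (1.18) gave 2.76 at 5000 UMIs and 2.03 with classes from single genes, and E16 (-0.02) gave 0.43 under separate clustering, in an interval from -0.51 to 0.97. Deeper thinning keeps more UMIs per cell, and a smaller added CPM widens the ratios of low genes. The cause was not tested for the others. Of 214 values for single genes, 158 moved within counting error and 56 beyond it. Of 10 calls of single genes, recomputed 93 times, 8 were lost (4 of Olig2 for E18 over E16, 3 of Aqp4 and 1 of Gfap) and 0 changed sign. Genes that were not called changed sign 14 times: 9 of these were Pdgfra, from -0.72 to 0.63, and under the strict filter Olig1 (0.83), Olig2 (0.50) and S100b (0.25) turned positive for E18 over E14. The strict filter left 2 radial glia labelled E16, and 3, 1 and 1 neurons labelled E16 remained with no doublets removed, at resolution 0.5 and with newborn neurons only, so these gave no value. None of the 8 genes reached 5 CPM on average for E16 over E14 or E18 over E16. No paired analysis was possible because each label has 1 library. Pdgfra, Sox10 and Aqp4 had 0 to 8 UMIs each in the radial glia of a library, which limits the precision of their values.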
